A study of Mus musculus with 3 samples.

Results

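The genes described here are 10 listed symbols of the NRF2 antioxidant programme and of iron storage: Hmox1, Nqo1, Gclm, Gclc, Txnrd1, Srxn1, Fth1, Ftl1, Gpx3 and Sod2. All 10 were found among the 32285 genes of the spatial transcriptome (Visium) files, each as 1 row, and all 10 had unique molecular identifiers (UMIs, 1 per captured RNA molecule) in all 3 heart sections. The sections came from C57BL/6 mice that were 8 weeks old when supplied and had 1 week to acclimatize; the labels do not give their sex. The sham mouse received vehicle by gavage for 7 days and an operation with the needle only, without ligation. The I/R mouse received vehicle for 7 days, then 30 min of ligation of the left anterior descending coronary artery and 24 h of recanalization. The SBP mouse received Shexiang Baoxin Pill (MUSKARDIA), a traditional Chinese medicine compound, for 7 days before the same ligation and recanalization. Each condition was represented by 1 section of 1 heart, so no test between conditions was possible. Intervals are 95% intervals that cover counting error only, and a difference between sections cannot be told apart from a difference between single animals, slides or cutting planes.

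NRF2, encoded by Nfe2l2, is a transcription factor that KEAP1 holds at a low level in unstressed cells. Oxidants and electrophiles modify KEAP1, and NRF2 then binds antioxidant response elements together with small MAF proteins, while BACH1 competes for those elements at Hmox1. Its textbook targets make glutathione (Gclm, Gclc), keep thiols reduced (Txnrd1, Srxn1), detoxify quinones (Nqo1), break down haem (Hmox1) and store the iron that haem releases (Fth1, Ftl1). Reperfused myocardium is known for an oxidant burst and for an influx of neutrophils and monocytes, and macrophages that clear haem are known to express Hmox1 and ferritin.

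Some of the control of these genes can be read in their sequence. Ferritin RNAs carry an iron-responsive element near their 5′ end, a hairpin to which iron regulatory proteins bind when iron is scarce and which holds back translation, so a ferritin RNA level is not a ferritin protein level. The loop letters CAGTGN were searched on the transcript strand in the opening 250 bases of GENCODE M21 transcripts and were found in both ferritin transcripts, and also in 32.3% of all 58797 protein-coding transcripts, so that the letters alone are common. The lines below show 30 bases of each transcript, with the loop letters in capitals.
Ftl1-201: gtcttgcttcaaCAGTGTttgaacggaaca
Fth1-201: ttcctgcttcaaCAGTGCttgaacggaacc
The core of the antioxidant response element was searched as TGACNNNGC on both strands of the RefSeq promoter windows (250 bases before to 50 after each start, GRCm38.p6), which held 8 of the 10 genes, Hmox1 and Gclc being without an entry. A second form, TGAGNNNGC, was added after the search of the first. The first form was found in 12.4% and the second in 17.6% of all 32851 windows, and 27.8% of the windows held either. Counted by gene, 30.8% of 27025 genes held either form. Among the 8 genes, Gclm, Txnrd1 and Srxn1 held a match, which is near that share. The lines below show them on the gene's strand, with the matches in capitals.
Gclm (chr3:122245398-122245456, plus strand): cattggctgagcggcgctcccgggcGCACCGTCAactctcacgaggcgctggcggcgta
Txnrd1 (chr10:82859089-82859147, plus strand): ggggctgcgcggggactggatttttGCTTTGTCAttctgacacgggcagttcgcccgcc
Srxn1, upstream (chr2:152105341-152105512, plus strand): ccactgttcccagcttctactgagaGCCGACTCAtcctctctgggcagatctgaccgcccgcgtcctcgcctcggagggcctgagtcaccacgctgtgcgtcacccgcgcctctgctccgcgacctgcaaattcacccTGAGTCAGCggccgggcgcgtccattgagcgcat
Srxn1, after the start (chr2:152105542-152105570, plus strand): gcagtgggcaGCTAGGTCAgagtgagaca
The match of Gclm began 134 bases before the start and that of Txnrd1, in 1 of its 3 windows, 92 bases before it. Srxn1 held 3 matches, 158 and 45 bases before and 28 bases after the start, the second of which (TGAGTCAGC) lay on the gene's strand while the other matches of the 3 genes lay on the opposite strand. These are descriptions of letters in a window, and elements farther from the start were not searched.

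A minimum of 200 detected genes per spot removed 6 spots, and the sections then held 2234 (sham), 2082 (I/R) and 1960 (SBP) spots, with 25118258, 30238530 and 21631280 UMIs. The median per spot was 10645, 14672 and 10652.5 UMIs, and mitochondrial genes gave between 44.3% and 48.6% of them. The labelled tissue was checked against its markers. All 8 cardiomyocyte genes were present in each section, summing to between 31228 and 42297 UMIs per 1000000 (CPM), whereas the atrial marker list was carried almost wholly by Nppa. A Visium spot covers several cells, and 1093 barcodes occur in all 3 files, as is usual for slides that share 1 barcode grid, so spots were never matched by barcode. Leukocyte markers differed between the sections. The 6 neutrophil genes summed to 32.8, 267 and 128 CPM (sham, I/R, SBP), the 5 monocyte genes to 34.1, 104 and 52.5, and the 8 macrophage genes to 677, 1213 and 727, while the cardiomyocyte genes summed to 42297, 31228 and 38473. Lyz2 alone gave 283, 695 and 346 CPM of the macrophage sum. Of the 8 macrophage genes 5 were at least 1.5-fold higher in I/R than in sham, Lyz2 among them. C1qa, C1qb and C1qc were within that fold, with log2 ratios of 0.18, 0.32 and 0.19. In bulk or spot RNA, fewer cells of a type and less RNA per cell cannot be told apart.

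The largest differences among the 10 genes were in haem breakdown and the light chain of ferritin. Hmox1 (chr8:75093621-75100589, plus strand, GRCm38), the inducible haem oxygenase that releases iron, carbon monoxide and biliverdin from haem, was at 13.7 CPM in the sham section (343 UMIs), 56.1 CPM in I/R (1697 UMIs) and 22.8 CPM in the SBP section (494 UMIs). Its level was therefore highest in I/R, with SBP between the others and no overlap of the 3 intervals. I/R was 4.11 times sham, a log2 ratio of 2.04 (1.87 to 2.21), and SBP over I/R gave a log2 ratio of -1.297 (-1.44 to -1.15). Ftl1 (chr7:45457944-45459884, minus strand), the ferritin light chain, which supports mineralization of iron within the shell, was at 279 CPM in the sham section, 997 in I/R and 444 in the SBP section. The order of the sections was that of Hmox1, and the log2 ratio was 1.84 (1.80 to 1.87) for I/R over sham and -1.17 (-1.20 to -1.13) for SBP over I/R. A copy listed beside it, Ftl1-ps1, held 301, 740 and 326 UMIs against 7015, 30137 and 9610 for Ftl1, so reads that match both could have been assigned to either or to none.

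The other ferritin chain did not go with the light chain. Fth1 (chr19:9980598-9985098, plus strand), the heavy chain, whose ferroxidase activity oxidizes iron for storage, was at 2298 CPM in the sham section, 2485 in I/R and 2431 in the SBP section. Its log2 ratio was 0.11 (0.098 to 0.13) for I/R over sham and -0.032 (-0.048 to -0.016) for SBP over I/R. Both changed sign under TMM factors (-0.11 and 0.12), under median-of-ratios size factors (-0.12 and 0.13) and without mitochondrial genes (-0.0021 and 0.021). The direction of Fth1 thus depended on the scaling, whereas Ftl1 was 3.57 times as high in I/R as in sham and kept its direction under all 3. These factors lowered every log2 ratio of I/R over sham by 0.22 (TMM) or 0.24 (median of ratios) and raised that of SBP over I/R by 0.15 or 0.16, and of the other 9 genes only Gclc changed direction under them, in SBP over I/R from -0.16 to 0.0032 with median-of-ratios factors.

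Of the thiol enzymes, Srxn1 differed most. Srxn1 (chr2:152105516-152111376, plus strand), which encodes sulfiredoxin, the enzyme that restores over-oxidized peroxiredoxins, was at 10.6 CPM in the sham section, 21.2 in I/R and 14.0 in the SBP section, with log2 ratios of 0.996 (0.79 to 1.21) for I/R over sham and -0.60 (-0.80 to -0.40) for SBP over I/R. The latter lay just past 1.5-fold and was within it under TMM factors (-0.45), under median-of-ratios size factors (-0.44), without mitochondrial genes (-0.55), and without the 10% of spots highest in leukocyte markers (-0.54) or in blood markers (-0.58). Txnrd1 (chr10:82833951-82897712, plus strand), the cytosolic thioredoxin reductase, was at 31.3 CPM in the sham section, 44.6 in I/R and 36.9 in the SBP section, with log2 ratios of 0.51 (0.38 to 0.64) and -0.27 (-0.40 to -0.15). The intervals of the 3 sections did not overlap for Txnrd1. Its ratio of I/R over sham lay within 1.5-fold, but was past it with equal weight for each spot (0.80), as was that of Gclm (0.70).

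Glutathione synthesis was represented by both subunits of its first enzyme. Gclm (chr3:122245557-122270732, plus strand), the modifier subunit of glutamate-cysteine ligase, was at 12.5 CPM in the sham section, 18.2 in I/R and 14.98 in the SBP section, with log2 ratios of 0.54 (0.34 to 0.75) for I/R over sham and -0.28 (-0.48 to -0.077) for SBP over I/R, sizes like those of Txnrd1. An antisense gene that overlaps it, Gm17494, held 25, 62 and 27 UMIs. Gclc (chr9:77754535-77794485, plus strand), the catalytic subunit of the enzyme, was at 4.06, 5.52 and 4.95 CPM, which rest on 102, 167 and 107 UMIs. Its log2 ratio was 0.44 (0.080 to 0.81) for I/R over sham and -0.16 (-0.52 to 0.20) for SBP over I/R, so at this depth a difference between SBP and I/R was not detectable. On the other 3 scales the interval of I/R over sham included 0 as well. Under TMM and median-of-ratios factors so did the intervals of SBP over I/R for Gclm and Txnrd1.

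Nqo1, Gpx3 and Sod2 were not higher in I/R. Nqo1 (chr8:107388225-107403206, minus strand), the quinone reductase that often serves as a readout of NRF2, was at 21.2 CPM in the sham section, 19.0 in I/R and 26.3 in the SBP section. Its log2 ratio was -0.16 (-0.33 to 0.012) for I/R over sham and 0.47 (0.30 to 0.64) for SBP over I/R, so SBP was the highest section. The interval of I/R over sham included 0 on the CPM scale, whereas without mitochondrial genes (-0.28), under TMM factors (-0.38) and under median-of-ratios factors (-0.40) it lay below 0. Gpx3 (chr11:54902453-54910377, plus strand), the secreted glutathione peroxidase of plasma, had the same order, at 228, 192 and 260 CPM, with log2 ratios of -0.25 (-0.30 to -0.20) and 0.44 (0.38 to 0.49). Sod2 (chr17:13006846-13040063, plus strand), the manganese superoxide dismutase of mitochondria, was at 317 CPM in the sham section, 267 in I/R and 269 in the SBP section. Here both reperfused hearts were below sham, with log2 ratios of -0.25 (-0.29 to -0.20) and -0.23 (-0.28 to -0.19), and SBP over I/R was at 0.011 (-0.037 to 0.060). That interval, too, left out 0 on the other scales, at 0.064 without mitochondrial genes, 0.16 under TMM factors and 0.17 under median-of-ratios factors.

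**Figure D1:**
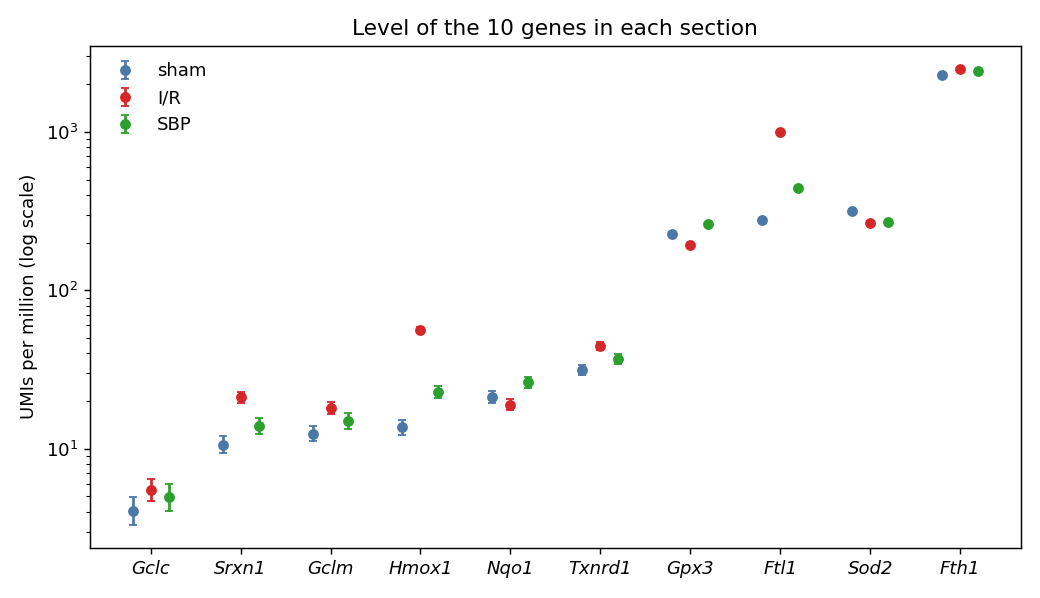
CPM (vertical axis, log scale) of each of the 10 genes in the sham, I/R and SBP sections, 1 section each, with points for the section sum and bars for the exact Poisson 95% interval. Hmox1, Ftl1 and Srxn1 show the widest spacing, with I/R at the top and SBP between, while Fth1 lies between 2298 and 2485 in all 3 sections.

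Counted against a fold of 1.5, which is a rule of size and not a test, 3 of the 10 genes were higher in I/R than in sham (Hmox1, Srxn1 and Ftl1) and 0 were lower. Of 12231 genes with at least 50 UMIs in both sections together, 23.2% were higher and 3.49% were lower by that fold, so a count of 3 of 10 was near the background. The median log2 ratio was 0.48 over the 10 genes and 0.24 over all genes. SBP over I/R put the same 3 names, Hmox1, Srxn1 and Ftl1, past the fold downward and 0 upward (Nqo1 under TMM factors at 0.62, and Nqo1 and Gpx3 under median-of-ratios factors at 0.63 and 0.60, were past it), where 13.8% of 12151 genes were lower and 1.95% were higher. These shares of all genes are on the CPM scale and were not computed under the other factors. The medians were -0.22 for the 10 genes and -0.17 for all genes. These comparisons share the I/R section, so a value that happened to be high there moves both. SBP over sham, which shares a section with each of them, put Hmox1 (log2 ratio 0.74, 0.54 to 0.94) and Ftl1 (0.67, 0.63 to 0.71) past the fold upward and 0 genes downward, where 5.31% of all genes were higher and 2.77% were lower.

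**Figure D2:**
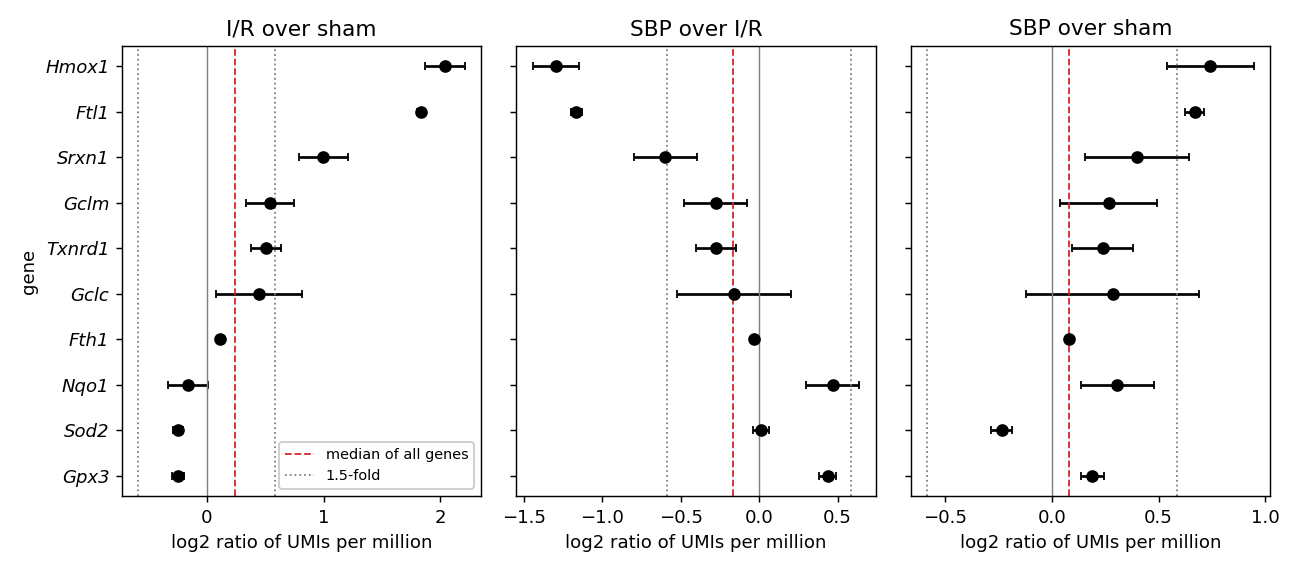
Log2 ratios of CPM (horizontal axis) for the 10 genes in the 3 comparisons of sections, with 95% intervals from counting, a dashed line at the median of all genes and dotted lines at 1.5-fold. Hmox1 and Ftl1 lie beyond 1.5-fold in all 3 panels, and Nqo1 and Gpx3 lie to the right of 0 in SBP over I/R.

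Spots at equal depth gave the spread behind these sums. Each spot was thinned to 6500 UMIs, which left 2102 sham, 1880 I/R and 1747 SBP spots. A UMI of Hmox1 was then present in 5.52% (4.58 to 6.58) of sham spots, in 18.0% (16.3 to 19.8) of I/R spots and in 8.36% (7.10 to 9.75) of SBP spots, against 9.53%, 30.4% and 14.6% before thinning. The richest thinned spot held 4, 15 and 8 Hmox1 UMIs in the same order. Ftl1 was present in 67.2%, 86.6% and 76.8% of thinned spots, with a median of 1, 3 and 2 UMIs per spot and a 90th percentile of 4, 18 and 5. Its highest spot held 76, 162 and 50 UMIs out of 6500, and I/R was thus the highest section at the median, the 90th percentile and the maximum. Fth1 was present in 100% of thinned spots in each section, with a median of 15 UMIs in all 3.

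At 6500 UMIs the sparser genes followed the order of their sums. For Gclm, Gclc, Txnrd1, Nqo1 and Gpx3 the order of the sections changed at another depth or without thinning. Srxn1 was present in 5.99%, 11.8% and 8.01% of thinned spots in sham, I/R and SBP, Txnrd1 in 16.7%, 22.8% and 18.3%, and Gclm in 7.71%, 10.4% and 8.82%. The sham and SBP intervals overlapped for all 3 of these genes, and those of I/R and SBP overlapped for Gclm. Gclc was present in 2.57%, 3.24% and 3.09% of spots, 3 intervals that overlap. Nqo1 was present in 12.9%, 11.8% and 15.5%, Gpx3 in 68.3%, 67.2% and 74.8% and Sod2 in 85.7%, 79.3% and 83.3%, so that SBP was the highest section for the former pair, although for Nqo1 its interval overlapped that of sham. Sham was the highest for Sod2, with an interval that overlapped that of SBP.

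The study used Ankrd1, a stress-responsive cardiomyocyte gene, to mark the infarct area on these sections. Spots above the sham 95th percentile of Ankrd1 (26.96 per 10000 UMIs) are called Ankrd1-high here. By construction they made up 5.01% of the sham spots (112 spots), and they made up 23.0% of the I/R spots (479) and 16.6% of the SBP spots (326). Their median depth was higher than that of the other spots, at 14927 against 10501.5 UMIs in sham, 17348 against 14103 in I/R and 11989.5 against 10453 in SBP. Neutrophil markers were also higher there, with log2 ratios of 1.44, 0.27 and 1.60 (sham, I/R, SBP), as were macrophage markers, at 0.51, 0.12 and 0.31, while cardiomyocyte markers were at -0.49, -0.37 and -0.34 and blood markers at -1.78, -0.36 and -0.57. Their part in the differences below was not tested.

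Hmox1 was higher in Ankrd1-high spots of all 3 sections: 32.5 against 12.2 CPM in the sham section, 84.7 against 45.5 in I/R and 42.1 against 18.6 in the SBP section. The log2 ratios were 1.42 (0.99 to 1.83), 0.895 (0.75 to 1.04) and 1.18 (0.90 to 1.45). Txnrd1 was likewise at 55.8 against 29.3, 59.8 against 38.9 and 53.8 against 33.1 CPM, so that its level in Ankrd1-high spots was about the same in the 3 sections. Its log2 ratio of I/R over sham was 0.10 (-0.21 to 0.42) within Ankrd1-high spots and 0.41 (0.26 to 0.55) within the others. Srxn1 had log2 ratios of 0.50 (-0.13 to 1.08), 0.73 (0.50 to 0.97) and 0.84 (0.46 to 1.21), and Ftl1 of 0.64 (0.53 to 0.75), 0.34 (0.31 to 0.38) and 0.62 (0.55 to 0.68). Gclm, at 0.71, 0.50 and 0.50, and Gpx3, at 0.57, 0.16 and 0.32, were also above 0 in each section with intervals that left out 0.

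Sod2 was lower in Ankrd1-high spots of every section, at 270 against 320 CPM in the sham section, 206 against 290 in I/R and 232 against 277 in the SBP section. Fth1 was lower there in sham, at 1972 against 2323 CPM (log2 ratio -0.24, -0.29 to -0.19), and within a narrow range of the other spots in I/R (0.044, 0.020 to 0.067) and SBP (0.021, -0.011 to 0.053), with a negative value in I/R under 4 alternatives. Nqo1 did not keep 1 direction. It was at 35.8 against 20.1 CPM in sham (log2 ratio 0.83, 0.44 to 1.21), at 16.8 against 19.8 in I/R (-0.24, -0.53 to 0.040) and at 19.6 against 27.7 in SBP (-0.50, -0.86 to -0.15). Ankrd1-high spots of the sham section, which had no infarct, therefore held the highest Nqo1 level of the 6 classes by value, with an interval (27.7 to 45.5) that overlapped that of the other SBP spots (25.3 to 30.3).

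Past 1.5-fold upward in Ankrd1-high spots were 5 genes in sham (Hmox1, Nqo1, Gclm, Txnrd1 and Ftl1), 3 in I/R (Hmox1, Txnrd1 and Srxn1) and 5 in SBP (Hmox1, Txnrd1, Srxn1, Ftl1 and, at 0.61 with an interval of -0.078 to 1.25, Gclc), and 0 were past it downward in any section. Among all genes tested, 28.3% were higher and 6.08% lower in sham, 13.6% and 3.88% in I/R, and 16.6% and 5.02% in SBP. The median over the 10 genes was 0.60, 0.27 and 0.55, against 0.31, 0.24 and 0.21 over all genes, so in I/R the members were close to the background. The count for I/R depended on how spots were chosen and weighted. It was 0 with equal weight for each spot, where Hmox1 was at 0.51, and also 0 with the 95th percentile of the I/R section itself, and 1 above the sham 99th percentile, whereas it was 5 above the 90th percentile or without the 10% of spots highest in leukocyte markers, and 6 when 8 injury genes in place of Ankrd1 set the region. In sham and SBP the count was 3 in place of 5 above the sham 99th percentile, and it was also 3 in SBP without mitochondrial genes. The share of all genes past the fold was not computed under these alternatives. Their counts therefore cannot be set against the shares above.

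Along Ankrd1 the levels were not always highest at the top. In I/R, Hmox1 was at 19.4 CPM in spots up to the sham median of Ankrd1, then 46.9, 72.2 and 84.7 CPM in the classes up to the 75th percentile, up to the 95th and above it. In sham it was at 4.93, 10.1, 30.0 and 32.5 CPM, and in SBP at 4.34, 10.1, 40.5 and 42.1 CPM. The sham and SBP series for Hmox1 thus lay close to each other in the lower 2 classes, and the I/R series lay above both in all 4. Ftl1 in I/R was at 468, 892, 1433 and 1179 CPM, and the class from the 75th to the 95th percentile was its highest by value in all 3 sections. In sham the interval of that class (441 to 477) overlapped that of the top class (388 to 448). Sod2 in I/R was at 333, 299, 240 and 206 CPM, and it was lowest by value in the top class of every section. In sham and SBP the interval of the top class overlapped that of the class below it.

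**Figure D3:**
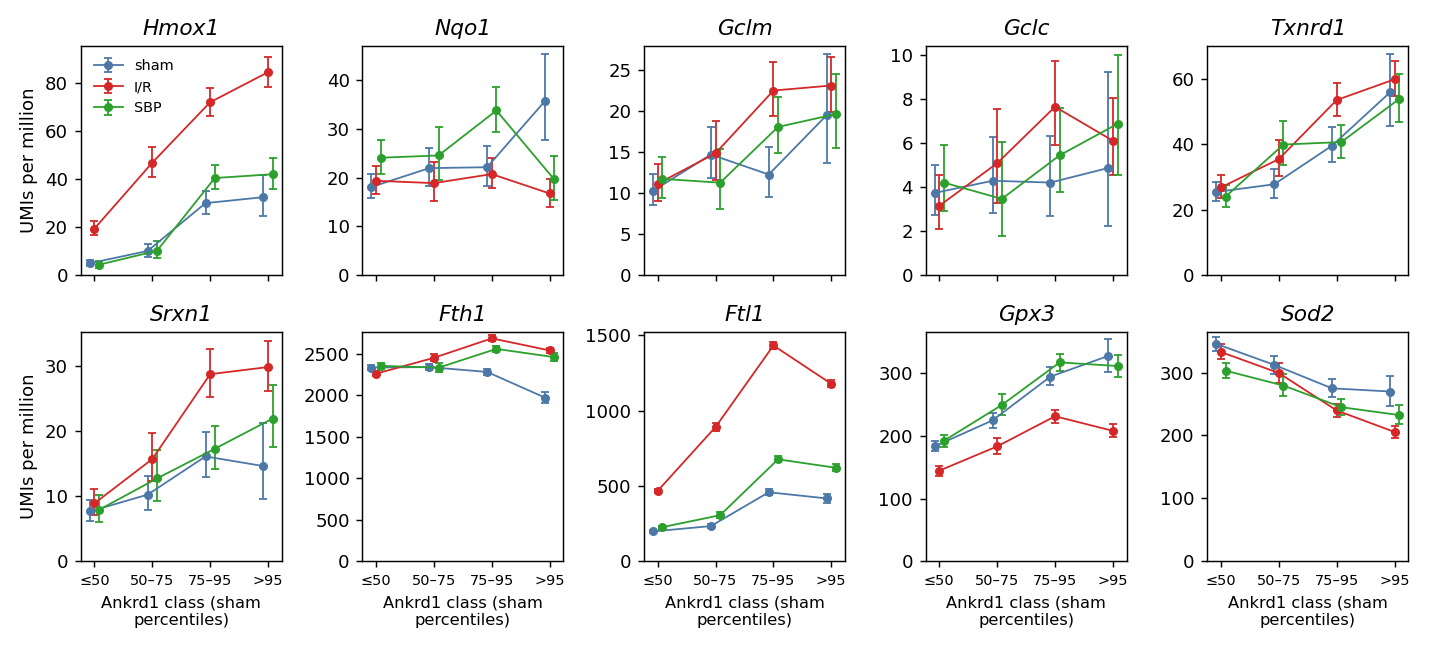
CPM (vertical axes, starting at 0) of each gene in 4 classes of spots set by the sham percentiles of Ankrd1 (horizontal axes), with 1 line for each section and exact Poisson 95% intervals. Hmox1 and Ftl1 in I/R lie above the other sections in every class, and Sod2 slopes downward in all 3.

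Spots were also divided by leukocyte markers. Spots above the sham 95th percentile of 19 summed neutrophil, monocyte and macrophage markers (19.7 per 10000 UMIs) are called leukocyte-high. They made up 27.3% of the I/R spots (569) and 12.2% of the SBP spots (239), and 112 spots in sham by construction. In I/R they were shallower than the rest, with a median of 9687 against 15441 UMIs, and cardiomyocyte markers were lower there (log2 ratio -1.02). The injury genes used above to set a region were higher there, with log2 ratios of 3.80, 3.03 and 2.80 (sham, I/R, SBP). For Ankrd1-high over other spots the same genes were at 1.78, 0.71 and 1.15. A spot below the Ankrd1 cut was thus not shown to lie outside injured tissue. Leukocyte-high spots held 20.8% of all UMIs of the I/R section, but 69.7% of its Hmox1 UMIs and 64.8% of its Ftl1 UMIs. The median of all genes was itself higher in these spots, at a log2 ratio of 0.86.

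In leukocyte-high spots of I/R, Hmox1 was at 188 CPM against 21.5 in the other spots, a log2 ratio of 3.14 (2.98 to 3.29). The ratio was 2.99 (2.65 to 3.33) in sham and 3.19 (2.93 to 3.45) in SBP, and the 3 intervals overlapped. Ftl1 was at 3109 against 443 CPM in I/R, with log2 ratios of 2.82, 2.81 and 2.34 in sham, I/R and SBP. Srxn1 (1.65, 1.91 and 1.13) and Txnrd1 (1.29, 1.80 and 1.38) followed, and all their intervals left out 0.

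Fth1, nearly even between whole sections, was not even within I/R. It was at 3620 CPM in leukocyte-high spots and 2188 in the others, a log2 ratio of 0.73 (0.70 to 0.75), with 0.33 in sham and 0.43 in SBP. The median of all genes was 0.58, 0.86 and 0.52 in sham, I/R and SBP, so Fth1 lay below it in each section. Sod2 (-0.26, -0.78 and -0.27) was lower in leukocyte-high spots of all 3 sections. Nqo1 was lower there in I/R, at 9.71 against 21.4 CPM (-1.14, -1.55 to -0.76), and in SBP (-0.50, -0.999 to -0.044), while in sham the interval included 0. Past 1.5-fold upward in leukocyte-high spots were 6, 7 and 6 of the 10 genes in sham, I/R and SBP, where 49.7%, 63.8% and 45% of all genes were, so the counts were near the background. Past it downward were 0, 2 (Nqo1 and Sod2) and 0, where 4.52%, 8.05% and 4.49% of all genes were.

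Spots were then divided by both cuts. In spots below both, Hmox1 was at 8.58 CPM (7.40 to 9.89) in the sham section, 10.7 (9.28 to 12.3) in I/R and 8.76 (7.38 to 10.3) in the SBP section. These intervals overlap, while over whole sections I/R was 4.11 times sham. Overlap of separate intervals does not show equal levels, and no ratio between sections was computed for these spots. Srxn1 was at 9.39, 10.7 and 10.98 CPM and Txnrd1 at 27.4, 24.9 and 28.1 CPM in the same spots, also with overlapping intervals. Ftl1 was at 202, 348 and 283 CPM there, with separate intervals. In spots above the leukocyte cut alone, Hmox1 was at 82.4, 213 and 125 CPM and Ftl1 at 1569, 3722 and 1734 CPM. For Hmox1 the 3 intervals remained apart, and for Ftl1 the sham interval (1497 to 1644) ended just below the SBP interval (1668 to 1802), both below I/R.

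For Hmox1 and Ftl1 the contrast by Ankrd1 had opposite signs below and above the leukocyte cut. Among I/R spots below the leukocyte cut, Ankrd1-high over other spots gave a log2 ratio of 2.38 (2.12 to 2.64) for Hmox1 and 1.11 (1.05 to 1.16) for Ftl1. Among leukocyte-high spots the same ratio was -0.49 (-0.67 to -0.31) and -0.78 (-0.83 to -0.74). This was not particular to Hmox1 and Ftl1. In I/R, Fth1 was at 0.072 (0.043 to 0.10) below the cut and -0.31 (-0.35 to -0.27) above it. Gclc was at 0.68 (0.021 to 1.31) and -0.94 (-1.80 to -0.14). Gclm, Txnrd1, Srxn1 and Gpx3 were positive below the cut, with intervals above it that included 0. The contrast was not computed over all genes. In sham and SBP the signs of Hmox1 and Ftl1 were those of I/R, although for Hmox1 among leukocyte-high spots both intervals included 0. In I/R the highest class for Hmox1 and Ftl1 was therefore the one above the leukocyte cut and below the Ankrd1 cut (400 spots). Nqo1 was lowest there by value, at 8.41 CPM (5.75 to 11.9), against 22.2 (20.1 to 24.4) in spots below both cuts.

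**Figure D4:**
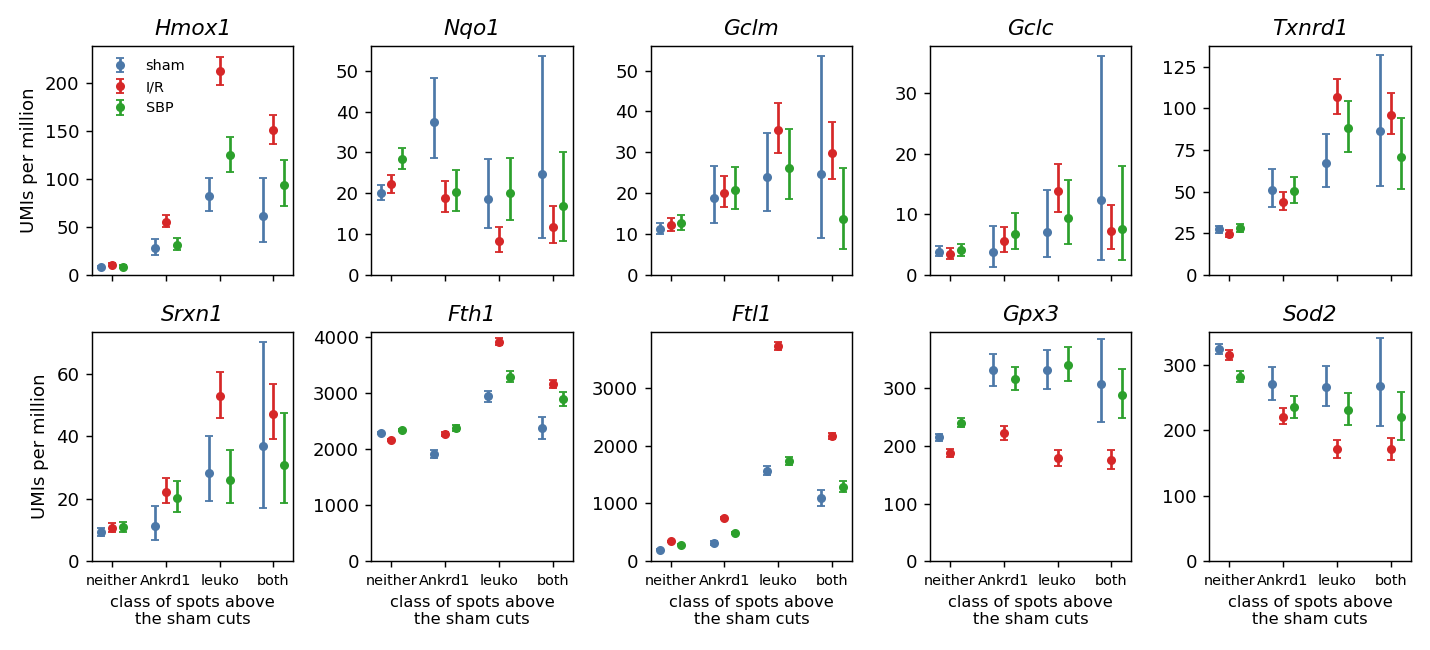
CPM (vertical axes, starting at 0) of each gene in spots above neither sham cut, above the Ankrd1 cut alone, above the leukocyte-marker cut alone (leuko) or above both, for the 3 sections, with exact Poisson 95% intervals. Hmox1, Txnrd1 and Srxn1 have overlapping intervals across sections in spots above neither cut, and I/R has the highest Hmox1 and Ftl1 in spots above the leukocyte cut.

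I/R was then compared with sham within the classes of leukocyte markers. Below the leukocyte cut the log2 ratio of I/R over sham was 1.12 (0.89 to 1.35) for Hmox1, 1.08 (1.03 to 1.13) for Ftl1, 0.50 (0.25 to 0.75) for Srxn1, 0.27 (0.035 to 0.50) for Gclm and 0.020 (-0.13 to 0.17) for Txnrd1, where the median of all genes was 0.049. Above the cut it was 1.26 (0.97 to 1.56) for Hmox1, 1.07 (1.001 to 1.13) for Ftl1, 0.76 (0.29 to 1.27) for Srxn1 and 0.53 (0.22 to 0.86) for Txnrd1, where the median was 0.30. By value, Hmox1, Ftl1 and Srxn1 were thus closer to sham in both classes than in the whole sections. For Srxn1 the interval above the cut included its whole-section value (0.996). Fth1 was not closer in both classes, at -0.051 (-0.068 to -0.033) below the cut and 0.35 (0.30 to 0.40) above it. Leaving out the 10% of spots highest in leukocyte markers did not lower the ratio for Hmox1, Ftl1 or Srxn1. It was then 2.19, 1.86 and 1.02, against 2.04, 1.84 and 0.996 in the whole sections. For Fth1 it was 0.049 against 0.11. Gpx3 was lower above the cut, at -0.88 (-1.04 to -0.72), as were Nqo1, at -1.02 (-1.69 to -0.31), and Sod2, at -0.64 (-0.81 to -0.46). The classes did not hold like amounts of leukocyte marker RNA in I/R and sham. Above the cut the neutrophil genes were at 1037 against 282 CPM and the macrophage genes at 3738 against 3261. Below it they were at 65.3 against 18.4 and at 551 against 527 CPM. The part of this in the ratios was not tested.

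The SBP section was compared with I/R in the same way. Below the leukocyte cut the log2 ratio of SBP over I/R was -0.76 (-0.99 to -0.54) for Hmox1 and -0.48 (-0.53 to -0.44) for Ftl1, and it was -0.11 (-0.35 to 0.14) for Srxn1 and 0.11 (-0.045 to 0.27) for Txnrd1. Above the cut it was -0.71 (-0.91 to -0.51) for Hmox1, -0.96 (-1.01 to -0.91) for Ftl1 and -0.88 (-1.31 to -0.48) for Srxn1. Also lower above the cut were Gclm, at -0.58 (-1.06 to -0.12), Txnrd1, at -0.31 (-0.55 to -0.064), and Fth1, at -0.19 (-0.23 to -0.15). The median of all genes was -0.0012 below the cut and -0.30 above it, so that Txnrd1 lay at the median above the cut, while Hmox1 and Ftl1 lay below it in both classes. Fth1 lay above the median in both classes, and below the cut it was higher in SBP, at 0.10 (0.084 to 0.12). Gpx3 and Nqo1 were higher in SBP in both classes, at 0.37 and 0.34 below the cut and 0.87 and 0.97 above it. These classes are ranges of a marker sum and not cell types, and spots above the cut in I/R had more leukocyte marker RNA than those in SBP, at 1037 against 778 CPM for the neutrophil genes and 3738 against 2680 CPM for the macrophage genes. The part of this in the differences was not tested.

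Over single spots of the I/R section, Ftl1 went with markers of leukocytes and against those of cardiomyocytes. Spearman's rho over 1880 thinned spots, a description with no p in which points share 1 library, was 0.65 with macrophage, 0.56 with neutrophil and -0.66 with cardiomyocyte markers. For Hmox1 the values were 0.40, 0.43 and -0.42, and for Fth1 0.36, 0.34 and -0.31. Sod2 had the opposite signs, -0.25, -0.24 and 0.32. In sham the values for Ftl1 were 0.28, 0.13 and -0.21, and in a spot that holds a fixed number of UMIs a higher share of 1 kind of RNA lowers the others.

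**Figure D5:**
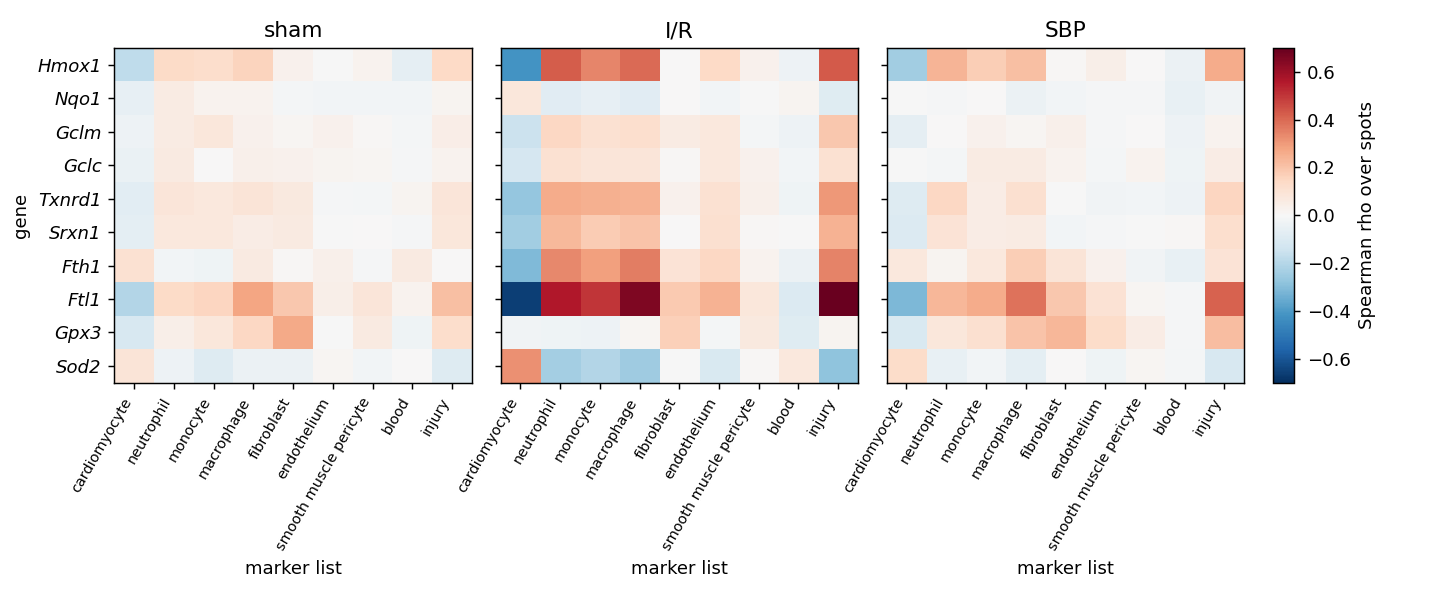
Spearman's rho over spots thinned to 6500 UMIs between each of the 10 genes (vertical axis) and the summed markers of each list (horizontal axis), in the 3 sections, with red for positive and blue for negative values on a scale from -0.7 to 0.7. Ftl1 and Hmox1 are positive with the leukocyte lists and negative with cardiomyocyte markers, most strongly in I/R, and Sod2 has the opposite pattern there.

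Among 2336 genes present in at least 20% of the thinned I/R spots, those nearest to Ftl1 were Actb (rho 0.71), Tmsb4x (0.69) and Eef1a1 (0.68), of which the former pair belong to the actin cytoskeleton and the last to translation elongation. The nearest to Fth1 was Ftl1 itself (0.44), followed by Rpl41 and Vim (both 0.38). The nearest to Txnrd1 were Actg1 (0.31), Actb (0.30) and Spp1 (0.29). Sod2 was nearest to the cardiomyocyte genes Mb (0.34), Atp2a2 (0.32) and Myh6 (0.32), which encode myoglobin, the calcium pump of the sarcoplasmic reticulum and alpha myosin heavy chain. Gpx3 was nearest to Col3a1 (0.21), Col1a2 (0.16) and Ankrd1 (0.15). Among the 45 pairs of members in I/R the median rho was 0.028. The highest were Hmox1 with Ftl1 (0.45) and Fth1 with Ftl1 (0.44), and the lowest was Ftl1 with Sod2 (-0.26). Several members were absent from most thinned I/R spots, with Gclc in 3.24%, Gclm in 10.4% and Hmox1 in 18.0% of them. Such ties at 0 can hold rho near 0, although they did not for Hmox1 with Ftl1 (0.45). The median alone therefore cannot tell whether the 10 genes moved together. Ftl1 (in 86.6% of spots) and Sod2 (79.3%) were widely present and went in opposite directions.

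Other genes of the pathway gave the setting. The list of 10 genes for the control of NRF2 included Nfe2l2 itself and Nfe2l1, which encodes a separate, related factor. Of these 10, 2 were at least 1.5-fold higher in I/R than in sham (20%, against 23.2% of all genes) and 0 were lower. The higher ones were the small MAF partners Mafg (7.52 to 15.2 CPM, log2 ratio 1.02) and Maff (4.22 to 6.55 CPM, 0.63). Nfe2l2 itself was at 42.5, 50.7 and 45.2 CPM in sham, I/R and SBP, and Keap1 at 22.9, 22.4 and 27.6 CPM. The lowest ratio was that of Nfe2l1 (-0.18). In SBP over I/R 0 of the 10 were past the fold in either direction, where 13.8% of all genes were lower and 1.95% higher. Keap1 (0.30) was at the top and Mafg (-0.45) at the bottom. Under TMM and median-of-ratios factors, tried after the data were seen, Maff (0.41 and 0.40) was within the fold in I/R over sham, so that 1 of the 10 was past it. The share of all genes was not computed under these factors.

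Of 25 further NRF2 target genes with enough UMIs, 9 were past the fold upward in I/R over sham and 1 downward, where 23.2% of all genes were higher and 3.49% lower, and the list's median log2 ratio was 0.44 where that of all genes was 0.24. The highest were Gsr, glutathione reductase (9.95 to 25.5 CPM, 1.36), and Pgd, an NADPH-producing enzyme of the pentose phosphate pathway (17.2 to 41.0 CPM, 1.26). The lowest were the glutathione transferases Gstm2 (94.0 to 59.4 CPM, -0.66) and Gstm1 (146 to 108 CPM, -0.43), and Gstm1 was past the fold under TMM (-0.65) and median-of-ratios factors (-0.67). In SBP over I/R, 6 of 26 were past the fold downward (4 under TMM and 3 under median-of-ratios factors) and 1 upward, where 13.8% of all genes were lower and 1.95% higher, with Tkt, transketolase (-1.01), and Ugdh, UDP-glucose dehydrogenase (-0.97), at the bottom and Gsta3 (0.94) at the top. Ephx1 was next to Gsta3, at 0.48. The shares of all genes are those of the CPM scale, and none was computed for the counts under the other factors. The list's median was -0.16 where that of all genes was -0.17.

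Of 20 iron-handling genes, 3 were past the fold upward and 0 downward in I/R over sham, a share of 15% against the 23.2% of all genes, among them Hp, haptoglobin, which binds free haemoglobin (2.59 to 15.6 CPM, 2.59 on the log2 scale), and Flvcr1, a haem exporter (1.99 to 4.13 CPM, 1.05). Cd163, the haemoglobin scavenger receptor, was at -0.55 and Fech, ferrochelatase, at -0.38. Under TMM factors both were past the fold downward (-0.77 and -0.60), and Slc39a14, a metal transporter and the other of the 3, was within it (0.49). In SBP over I/R, 3 of 20 were past the fold downward (15%, against 13.8% of all genes). Hp (-0.83) and Tfrc, the transferrin receptor (-0.80), were lowest. Lcn2, a siderophore-binding protein, was at 0.54 (0.69 under TMM factors, past the fold). Of 24 further antioxidant enzymes, Gpx1 (106 to 250 CPM, 1.24) and Gpx8 (14.3 to 23.4 CPM, 0.71) were past the fold upward in I/R over sham, and both were past it downward in SBP over I/R (-0.78 and -0.65), but under TMM factors Gpx8 was within it in both comparisons (0.49 and -0.50). These 2 of 24, or 8.33%, stood against the 23.2% of all genes higher in I/R over sham and the 13.8% lower in SBP over I/R. Here too the shares of all genes are those of the CPM scale only. At the other end, Txn2 (-0.36, and -0.59 under median-of-ratios factors) and Cat (-0.28) were lowest in I/R over sham. Cat (0.29) and Msrb1 (0.24) were highest in SBP over I/R. The lists' medians were 0.19 and 0.076 for I/R over sham, below the 0.24 of all genes. Blood was not evenly present, since 5 red cell markers (haemoglobin genes and Alas2) summed to 2886, 4105 and 3860 CPM in sham, I/R and SBP. Without the 10% of spots highest in these blood markers 3, 0 and 2 of the 10 genes were past the fold upward in I/R over sham, SBP over I/R and SBP over sham, and 0, 2 and 0 downward, Srxn1 in SBP over I/R being the 1 that was no longer past it. The share of all genes was not computed without these spots.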

How the data were processed

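Visium spatial transcriptomes of 3 heart sections were analysed, 1 each of sham, I/R and SBP, cut at 10 µm. Per the file headers and labels, the authors made the deposited UMI counts with Space Ranger 1.3.0 on mouse build mm10, for spots over tissue and without normalization. The study's methods text names another Space Ranger version and a human reference, but the files list 32285 mouse genes. The single-nucleus libraries were not analysed here. Spots with at least 200 detected genes were kept, and doublets, which have no meaning for spots, were not called. UMIs were summed per section and given per 1000000 (CPM). They were not scaled by length, and the levels of the 10 members were not compared with one another. Intervals (95%) were exact Poisson for sums, Clopper-Pearson for shares and conditional binomial for ratios, and they cover counting error only. With 1 section per condition there was no test. Genes with at least 50 UMIs in the pair of sections or classes were counted past 1.5-fold. Spots were thinned to 6500 UMIs for shares and correlations, which left out 132, 202 and 213 shallower spots. Named genes were the 10 members, genes out of the up to 2 highest and 2 lowest of each list in I/R over sham and SBP over I/R, and the 3 nearest genes to each member present in at least 20% of I/R spots. Not every gene that this rule allows is printed. Nfe2l2, Slc39a14, Lyz2, Ftl1-ps1 and Gm17494 were named outside this rule. The members and lists were chosen with earlier results of these data known. Ratios were tested on simulated data. Computation used scipy 1.17.1 and numpy 2.4.6 under Python 3.11.15, tables used pandas 2.3.3 and drawing used matplotlib 3.10.9.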

Additional observations from a re-analysis of the deposited data

Results flagged for a closer look

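Nqo1 in Ankrd1-high spots lay on opposite sides of the other spots in different sections, with a log2 ratio of 0.83 (0.44 to 1.21) in sham and -0.50 (-0.86 to -0.15) in SBP. The I/R value lay between them, at -0.24 (-0.53 to 0.040). The sham and SBP values kept their directions under every alternative that was run, and the difference between the sections was not tested, since each is 1 section.

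Fth1 in Ankrd1-high spots had a log2 ratio of -0.24 (-0.29 to -0.19) in sham and 0.044 (0.020 to 0.067) in I/R. The I/R value was negative under 4 alternatives and the sham value was positive when the injury genes set the region. The difference between the sections was not tested.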

How the results depend on the processing

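No paired analysis was possible because there is a single section (1) for each of the conditions, and for the same reason no replicate could be left out. Of 90 counts of genes under alternatives, 76 stayed within 1.5 times the reported count. The share of all genes past the fold was not computed under the alternatives, so the counts below have no background beside them. I/R over sham had 5 genes higher with equal weight for each spot and also 5 without the 1% of spots richest in each gene. SBP over I/R had 1 higher under TMM factors and 2 under median-of-ratios size factors, and SBP over sham had 0 higher at 2-fold. In Ankrd1-high spots of sham, 3 were higher above the 99th percentile. In those of I/R, 5 were higher above the 90th percentile, 1 above the 99th, 0 above the section's own 95th, 6 with the injury genes, 0 with equal weight and 5 without the spots highest in leukocyte markers. In those of SBP, 3 were higher above the 99th percentile and 3 without mitochondrial genes.

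Of 299 ratios between sections 7 reversed, all of Fth1. Values within counting error of 0 were not counted as reversed, and Gclc and Sod2 in SBP over I/R crossed 0 once each, to 0.0032 and -0.012. I/R over sham was -0.0021 without mitochondrial genes, -0.11 under TMM and -0.12 under median-of-ratios factors. SBP over I/R was 0.021, 0.12 and 0.13 in the same order and 0.014 without the spots highest in leukocyte markers. Of 240 ratios between Ankrd1 classes 7 reversed. Fth1 was at 0.31 in sham with the injury genes, and in I/R at -0.014 above the 99th percentile, -0.080 above the section's own 95th, -0.086 without mitochondrial genes and -0.015 with equal weight. In I/R, Ftl1 was at -0.094 above the section's own 95th percentile and Gpx3 at -0.030 with the injury genes. Apart from the changes in scale and spots that define these alternatives, the cause was not tested. Shares of spots moved with depth in 87 of 90 values. Apart from Fth1, the order of the sections by share changed for Gclm and Gclc at 3000 UMIs. It also changed for Gclc and Txnrd1 at 1000 UMIs, and for Nqo1 and Gpx3 without thinning. The depth left Gclc with 102 to 167 UMIs a section.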

Other observations

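In SBP over sham, of the NRF2 control genes 0 of 10 were past 1.5-fold upward or downward, with a median log2 ratio of 0.18, and of the further antioxidant enzymes 0 of 24, with a median of 0.031. Of 25 further NRF2 targets 4 were higher and 0 lower, with a median of 0.22. Of 20 iron-handling genes 2 were higher and 0 lower, Hp at 1.76 and Lcn2 at 0.73 on the log2 scale, and under TMM factors 2 were lower. On the CPM scale, 5.31% of all genes were higher and 2.77% lower. Lcn2 was at 73.9 CPM in the sham section, 84.4 in I/R and 123 in the SBP section, an order unlike that of Hmox1 and Ftl1, since SBP was the highest. The median of all genes was 0.082, and the comparison shares a section with each of the others.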
